A study of Paracentrotus lividus with 19 samples.

Results

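Embryos of the sea urchin Paracentrotus lividus that developed in zinc were compared with embryos that developed in iron. Poly(A) RNA was sequenced from whole embryos at 24 h after fertilization, and exposure had started at the fertilized egg. Of the 19 libraries, 15 entered the comparison, taken by their titles. The 7 zinc libraries comprised 3 of ZnO particles and 4 of the salt ZnSO4. The 8 iron libraries comprised 4 of Fe2O3 particles and 4 of the salt FeCl3. The other 4 libraries, unexposed controls, entered no test here, and their values are given for reference. Per the labels, Fe2O3 was given at 5e-05 M (iron at 4 mg per L) and ZnO at 1e-05 M (zinc at 0.8 mg per L), with each salt at the metal concentration of its particle. The molar and mass figures were not reconciled. The stated zinc and iron doses thus differ, so the metal and its dose cannot be told apart. Each sample was a pool of many embryos. The titles carry the names F1, F2 and F3, called sets here, which the labels do not explain. F1 held 1 ZnO library and 2 libraries of each other treatment, and F2 and F3 held 1 library per treatment. No label says that the libraries were grown as separate cultures. The p-values therefore measure the spread among these samples only, and that spread may be technical.

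Zinc and iron are both essential and both toxic in excess, and animal cells handle them with different proteins. Metallothioneins are small cysteine-rich proteins that bind zinc, copper and cadmium, and their genes are switched on by zinc through a metal-responsive transcription factor. Iron is held by other proteins and built into haem and iron-sulphur clusters. At this age the sea urchin embryo is making its skeleton of calcium carbonate rods, its gut is invaginating or formed, and its ectoderm is being divided into oral and aboral territories with an apical plate that carries a tuft of long cilia.

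The libraries held 24438369 to 32801015 counts in zinc and 24780446 to 31177927 in iron, and a tested feature had a median of 1472 counts over the 15 libraries. Of 63389 features, 62675 passed the filter on low counts. Features with an adjusted p under 0.05 were called (edgeR's quasi-likelihood test, Benjamini-Hochberg over all features tested, with set as a term). Zinc and iron differed at 4135 features, 6.6% of those tested, of which 1849 (2.95%) were higher and 2286 (3.65%) lower in zinc. The difference exceeded 1 on the log2 scale, a doubling, for 310 of the higher and 451 of the lower features. Without the set term, 224 features were called. Of features with a gene name, 111 of 572 (19.4%) were called, and a share of a gene list near this is not a result about the list. Numbered contigs made up most of the table, and 5.68% of them were called. A stricter description asks that every zinc library lie above every iron library of its own set, which held for 943 features (1.5%), or below it, which held for 1193 (1.9%). The labelled tissue is the whole embryo. Over the 15 libraries, ENDO16.3.3 of the gut stood at 65.2 to 333 CPM (counts scaled to a fixed library size), SM37.1.2 of the skeleton at 242 to 368, and ANKAT-1.1.2 of the apical plate at 2.56 to 74.3.

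Metallothionein was higher in zinc, in all of the features that carry its name. The 23 features named MT (the suffix in MT.19.23 numbers the contig among those of 1 name) were all called higher, and each had every zinc library above every iron library of its set. Their counts were also summed, because reads of near-identical copies may have been divided between them and single features are therefore uncertain. CPM is not per length, so levels are not compared between genes. The sum was 11490 CPM in F1 ZnO, 8608 in F2 ZnO and 12560 in F3 ZnO, and 11520 and 10830 in the F1 ZnSO4 libraries, 11790 in F2 ZnSO4 and 12620 in F3 ZnSO4. It was 4351 and 4884 in F1 Fe2O3, 3205 in F2 Fe2O3 and 5267 in F3 Fe2O3. It was 6864 and 6826 in F1 FeCl3, 5172 in F2 FeCl3 and 7647 in F3 FeCl3. The lowest zinc library thus stood above the highest iron library. On the log2 scale the sum was 1.08 ± 0.06 higher in zinc (± SE, adjusted p = 7.64e-10). An exact two-sided permutation test, with metal labels exchanged within sets, gave p = 0.000794, the smallest that its 1260 assignments allow.

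Single metallothionein features differed by very unequal amounts. The median of the list of metallothionein and zinc transport was 1.12, against 0.00357 over all features tested. MT.11.23 had the smallest difference of the 23 (0.83 ± 0.08, adjusted p = 2.05e-06). MT.19.23 had the largest (4.02 ± 0.16, adjusted p = 1.66e-12). In zinc MT.19.23 stood at 8.59 CPM at the lowest, 27.4 at the median and 30 at the highest, and in iron at 0.196, 1.5 and 5.31. MT.23.23, MT.2.23 and MT.17.23 also differed by over 3 on the log2 scale, and these 4 were at low CPM in iron. MT.6.23 was mostly an F2 feature, with 1134 CPM in F2 ZnO against 64.8 in F1 ZnO and 52.2 in F3 ZnO, and within F2 it stood at 444 in Fe2O3 and 661 in FeCl3.

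**Figure D1:**
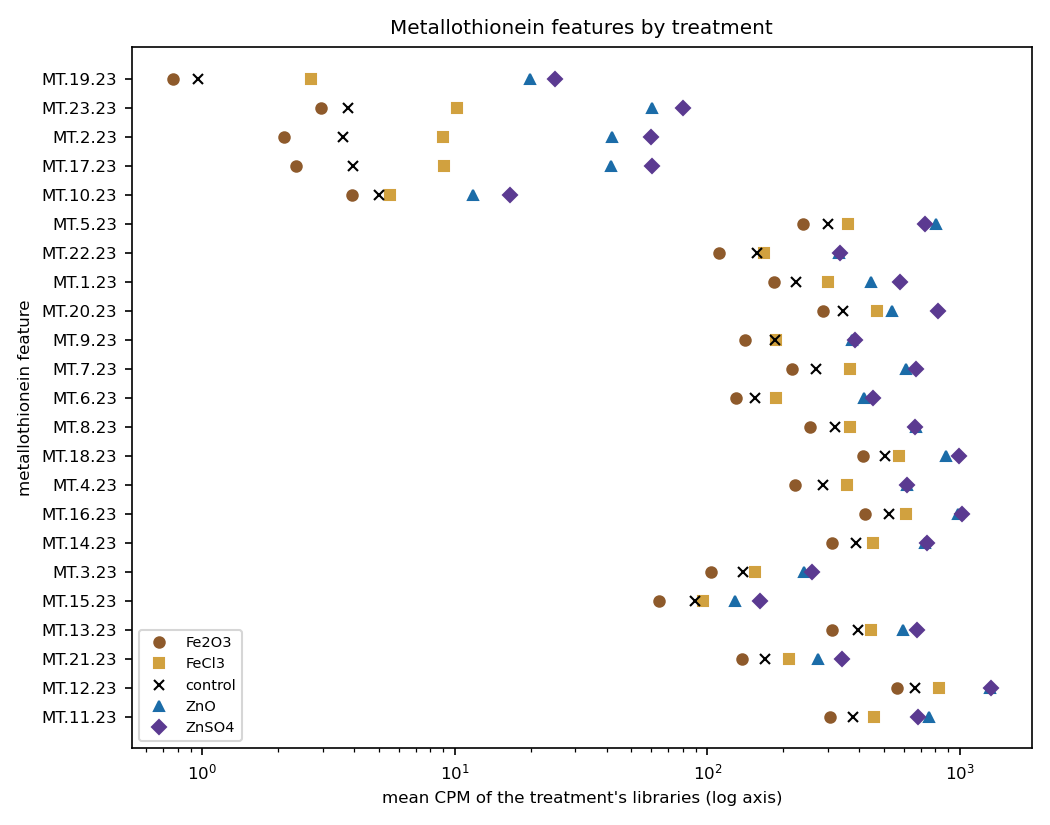
Mean CPM (log axis) of each of the 23 metallothionein features in the libraries of each treatment, ordered by the zinc minus iron difference with the largest at the top. For all 23 features FeCl3 lies above Fe2O3, and both zinc treatments lie above both iron treatments.

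The iron libraries were not alike in metallothionein. All 23 features had a higher mean in FeCl3 than in Fe2O3, and for 21 of them every FeCl3 library lay above the Fe2O3 libraries of its set. The control sums, 5729 and 5739 CPM in F1, 3770 in F2 and 6826 in F3, lay between those of Fe2O3 and FeCl3 in every set. The difference of zinc from iron in the sum was 1.33 in the particle pair, ZnO against Fe2O3, and 0.83 in the salt pair, ZnSO4 against FeCl3, and the gap between the pairs was not called (adjusted p = 0.715). It was called for MT.17.23 and MT.2.23, described with the particles and salts.

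Other genes of zinc and iron handling differed by less. S39AE, named for the zinc and iron importer ZIP14, was the other member of the zinc list and was lower in zinc by 0.35 on the log2 scale (-0.35 ± 0.07, adjusted p = 0.00264). It stood at 21.8, 24.7 and 30.6 CPM (lowest, median, highest) in zinc and at 27.4, 31.8 and 35.3 in iron, and the groups overlapped. None of the 4 features in the iron list was called. FECH and HEMH, both named for ferrochelatase, which inserts iron into haem, differed by 0.08 ± 0.06 each. ISCU, the scaffold on which iron-sulphur clusters are built, differed by -0.06 ± 0.09. MYP, the major yolk protein and a transferrin-like protein in sea urchins, differed by 0.23 ± 0.24 at 0.235 to 1.78 CPM. Ferritin was not among the gene names matched, so the best-known iron storage protein was not analysed here.

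Several genes of fatty acid handling were lower in zinc. Of 10 tested features of the lipid list, 6 were called lower and none higher, all 10 differences were below 0, and the median was -0.47. The 6 that were called had every zinc library below every iron library of its set, as 18 of all 572 features with a gene name did. Each of the 6 was also called lower in the particle pair and in the salt pair. Acetyl-CoA carboxylase makes malonyl-CoA, the first committed step of fatty acid synthesis. Its feature ACAC.2.3 stood at 24.9, 40.0 and 72.7 CPM (lowest, median, highest) in zinc and at 64.6, 130 and 142 in iron. The overlap came from differences between sets. In F2, the set with the lowest iron values, ZnO stood at 33.9 and ZnSO4 at 24.9, against 72.3 in Fe2O3 and 64.6 in FeCl3. ACAC.2.3 was lower by 1.32 on the log2 scale (-1.32 ± 0.14, adjusted p = 2.55e-06), and the difference was -1.18 in F1, -1.23 in F2 and -1.65 in F3. ACAC.1.3 (-1.29) and ACAC.3.3 (-1.25) moved alike, but may be parts or copies of 1 gene.

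The carnitine palmitoyltransferases carry long-chain fatty acids into mitochondria for burning, and malonyl-CoA inhibits them. CPT1B stood at 23.8, 25.5 and 32.6 CPM in zinc and at 35.8, 39.7 and 46.5 in iron, without overlap (-0.56 ± 0.07, adjusted p = 2.58e-05). CPT1A stood at 23.2, 26.9 and 35.1 CPM in zinc and at 32.7, 38.9 and 44.7 in iron (-0.50 ± 0.06, adjusted p = 4.09e-05). Acetyl-CoA synthetase, which makes acetyl-CoA from acetate, was also lower without overlap. Its feature ACSA stood at 72.3, 79.8 and 93.1 CPM in zinc and at 94.0, 109 and 123 in iron (-0.44 ± 0.05, adjusted p = 1.15e-05). Synthesis and burning of fatty acids were thus both represented among the features that were lower. Of the members not called, ECHS1, a hydratase of fatty acid oxidation, had -0.40 over all but 0.56 in the salt pair, and HMDH, the enzyme named HMG-CoA reductase that controls sterol synthesis, had -0.02. CYP51, a demethylase of sterol synthesis in another list, had 0.24 and was not called.

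Ectoderm regulators gave the largest falls among features taken by the rule for named genes. Of 12 features in the ectoderm list, 4 were lower and 2 higher in zinc, with a median of -0.56. HMB1, a homeobox gene, stood at 17.1, 20.6 and 52.4 CPM (lowest, median, highest) in zinc and at 94.7, 168 and 187 in iron. The groups did not overlap, and the controls, at 94.2 to 181, lay among the iron libraries. HMB1 was lower by 2.54 on the log2 scale (-2.54 ± 0.17, adjusted p = 6.43e-09), with -2.99 in F1, -1.98 in F2 and -2.40 in F3. DLX, the distal-less homeobox gene, stood at 7.69, 16.4 and 42.0 CPM in zinc and at 32.2, 71.4 and 87.8 in iron. It was lower in every set (-1.73 ± 0.25, adjusted p = 0.000116), most in F1 (-2.56) and less in F2 (-0.94) and F3 (-1.26). The highest zinc value of both homeobox genes was that of F3 ZnO.

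UNIV, named for univin, a TGF-beta family ligand of the sea urchin ectoderm, went the other way. It stood at 98.4, 123 and 150 CPM in zinc and at 79.3, 98.7 and 108 in iron, with every zinc library above the iron libraries of its set (0.40 ± 0.06, adjusted p = 0.000103). DVR1, another TGF-beta family ligand, was higher by 0.29 ± 0.08 (adjusted p = 0.0316), from 0.56 in F1 but -0.09 in F2. The arylsulphatase features, ARS, markers of aboral ectoderm, were not called. ARS.4.5 had -1.30 ± 0.47, but at very low counts (mean log2 CPM -2.35). ARS.2.5, the ARS feature with the highest CPM, had -0.02, with -0.36 in F1, 0.29 in F2 and 0.23 in F3. ARS.3.5 had 0.25 in F1, -1.72 in F2 and -0.08 in F3. Both varied by set (adjusted p = 0.00195 for ARS.2.5 and 0.000256 for ARS.3.5).

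Several proteases of the extracellular matrix were higher in zinc. Of 24 tested features in the matrix list, 8 were higher and 1 lower, with a median of 0.28. MMP16, a membrane-type matrix metalloproteinase, stood at 15.6 CPM in F1 ZnO, 25.9 in F2 ZnO and 11.9 in F3 ZnO, and at 16.9 and 14.8 in F1 ZnSO4, 27.5 in F2 ZnSO4 and 13.3 in F3 ZnSO4. In iron its lowest, median and highest values were 5.28, 6.05 and 12.3, and the 2 values over 10 were both from F2. Each zinc library stood above the iron libraries of its set, by 1.27 ± 0.08 over all (adjusted p = 1.56e-09). BP10 is a secreted astacin protease of the blastula. BP10.3.6 was higher by 1.35 ± 0.28 (adjusted p = 0.00349) and BP10.2.6 by 1.84 ± 0.36 (adjusted p = 0.00277), both at under 8 CPM in every library. The other 4 BP10 features were not called. Their differences were 0.59 (BP10.1.6), 0.39 (BP10.4.6), 0.60 (BP10.5.6) and 0.02 (BP10.6.6), and the last varied by set (adjusted p = 0.037). BMP1, a related protease that cleaves procollagen and chordin, was higher by 0.34 ± 0.07 (adjusted p = 0.00417), by 0.43 in F1 and 0.56 in F3 but by -0.02 in F2. MMP14.2.5 was higher by 0.62 ± 0.12 (adjusted p = 0.00249), but it was almost absent from F2, at 0.161 to 0.813 CPM, and rests on F1 and F3. MMP14.1.5 and MMP14.3.5, at higher CPM, were each higher by 0.35 over all (adjusted p = 0.0325 and 0.0211). In F2 they had -0.17 and -0.18, and both varied by set (adjusted p = 0.00465 and 0.000844). MMP14.5.5 (0.20) and MMP14.4.5 (-0.24) were not called. EGIP, named for exogastrula-inducing peptides, was higher by 0.48 ± 0.11 (adjusted p = 0.00849), and without F1 ZnO, its highest library at 746 CPM, the adjusted p was 0.0752. Both F1 ZnSO4 libraries lay below all iron libraries of F1 for EGIP. Its difference was 0.72 between ZnO and Fe2O3, where it was called, and 0.23 between ZnSO4 and FeCl3, where it was not. The gap between these pairs was not called. FREM2, a large extracellular matrix protein, was the member that was lower and is described with the genes that varied by set.

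Most actin features were higher in zinc. Of 19 features in the list of actin and calmodulin, 12 were higher and none lower, the median was 0.25, and 8 had every zinc library above the iron libraries of its set. Of all 572 features with a gene name, 42 were separated in that way. ACTG1 stood at 190, 278 and 359 CPM (lowest, median, highest) in zinc and at 98.6, 118 and 178 in iron, without overlap (1.11 ± 0.09, adjusted p = 2.64e-07). ACT1.1.2 was higher by 0.74 ± 0.10 (adjusted p = 3.47e-05) and ACT2 by 0.40 ± 0.06 (adjusted p = 0.000216). Actin copies are near-identical, so the single values are uncertain. CALM3, a feature named for the calcium sensor calmodulin, was higher by 0.40 ± 0.07 (adjusted p = 0.000691). CALM.3.5 was higher by 0.43 ± 0.11 (adjusted p = 0.0198), and its adjusted p was 0.122 without F1 ZnO. The other CALM features were not called, and they went both ways. Their differences were 0.35 (CALM.1.5), -0.34 (CALM.2.5), -0.47 (CALM.4.5) and -0.07 (CALM.5.5, at the highest CPM of the CALM features). CALMB.1.3 (0.20), CALMB.2.3 (0.25) and CALMB.3.3 (0.24) were called higher. The differences of the called features ranged down to 0.18 (ACTC.1.2).

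**Figure D2:**
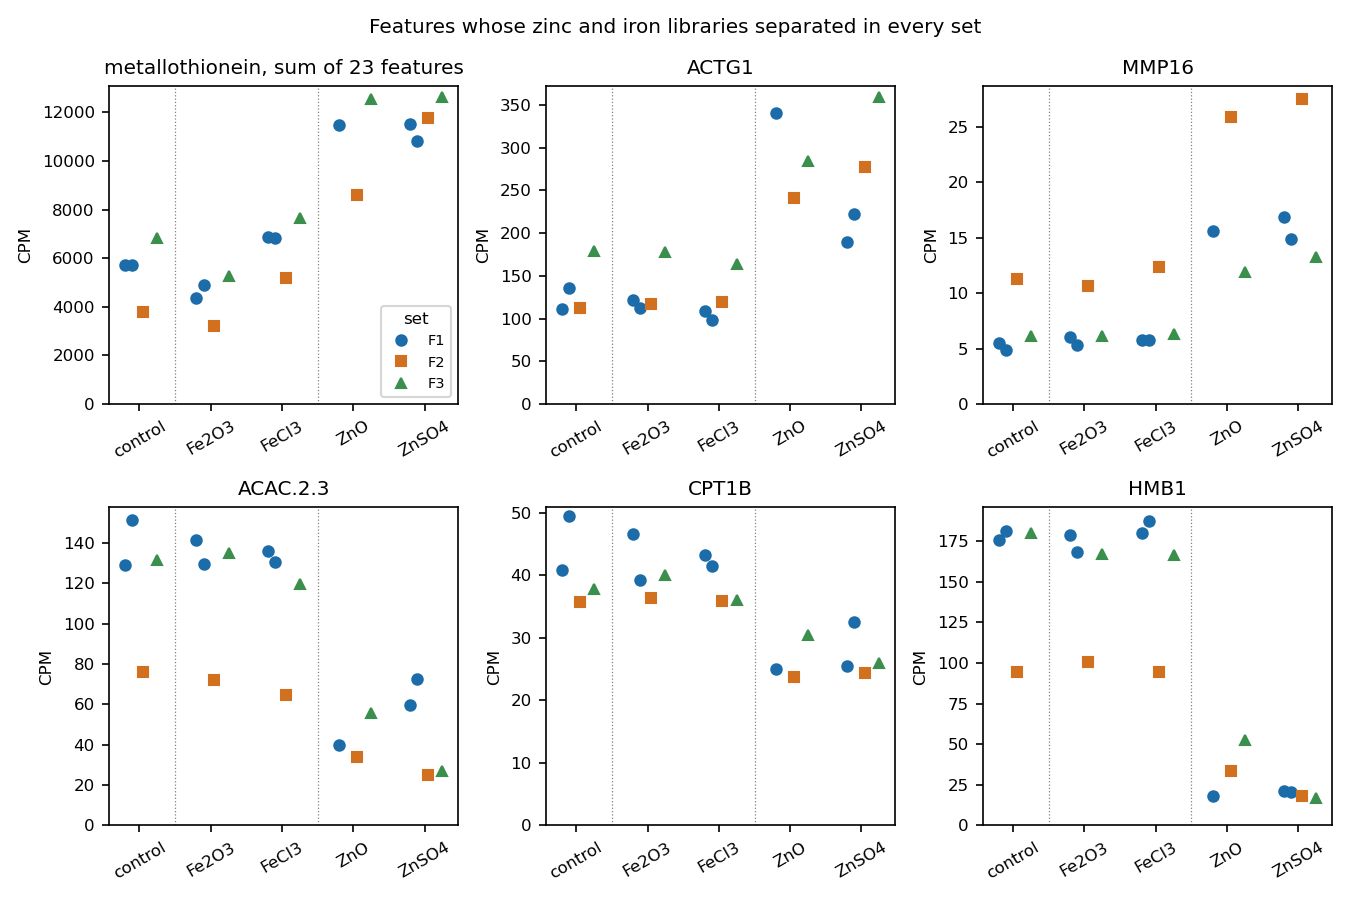
CPM in each of the 19 libraries (points, 1 per library, shape and colour by set) for the metallothionein sum and 5 features, by treatment. In each panel and set the zinc libraries lie on 1 side of the iron libraries, with ACAC.2.3 at 24.9 to 72.7 in zinc and 64.6 to 142 in iron, and the controls, which entered no test, lie among or near the iron libraries.

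Skeletal matrix genes split by family. Of 20 features in the skeleton list, 9 were higher and 5 lower in zinc, and the median was -0.04. SM30 proteins are occluded in the spicule and are made by the primary mesenchyme cells that build it. SM30A.1.2 stood at 18.9 CPM in F1 ZnO, 11.0 in F2 ZnO and 19.8 in F3 ZnO, and at 13.5 and 11.9 in F1 ZnSO4, 14.1 in F2 ZnSO4 and 25.4 in F3 ZnSO4. In iron it stood at 23.7, 26.7 and 47.0 (lowest, median, highest). It was lower in every set by nearly the same amount, -0.87 in F1, -0.91 in F2 and -0.89 in F3 (-0.89 ± 0.09 over all, adjusted p = 2.86e-06). SM30A.2.2 (-0.55 ± 0.10, adjusted p = 0.00188) and SM30 (-0.51 ± 0.09, adjusted p = 0.000859) were lower too. Reads of these related features may have been shared.

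The spicule matrix proteins PM27, SM37 and SM41 went the other way. PM27 stood at 187, 220 and 273 CPM in zinc and at 157, 186 and 202 in iron, above the iron libraries in every set (0.34 ± 0.06, adjusted p = 0.000519). SM37.1.2 was higher by 0.26 ± 0.05 (adjusted p = 0.0037), and the 3 SM41 features by 0.25 to 0.30. ERG, an ETS transcription factor of the mesoderm, was higher by 0.47 ± 0.09 (ERG.1.2, adjusted p = 0.00134). ERG.1.2 stood at 60.8 and 61.0 CPM in the F1 ZnSO4 libraries, at the iron level of 60.4 to 71.4, and at 91.4 to 116 in the other 5 zinc libraries. Of the fibroblast growth factor receptors, which receive a signal that guides skeletal growth in sea urchins, FGFR.1.3 (-0.29 ± 0.07, adjusted p = 0.0124) and FGFR.3.3 (-0.42 ± 0.11, adjusted p = 0.02) were lower. FGFR.2.3 (-0.23) was not called. In F2 the difference was -0.01 for FGFR.1.3 and -0.13 for FGFR.3.3. Both were called in the salt pair (-0.43 and -0.66, adjusted p = 0.00768 and 0.00193) but not in the particle pair (-0.16 and -0.24, adjusted p = 0.672 and 0.646). The gap between the pairs, tested directly, was not called for either. In bulk samples, fewer cells of a type and less RNA per cell cannot be told apart.

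At some features the size of the difference depended on the set. The test of metal by set called 1451 features (2.32% of those tested), and 580 of these were also among the features called for zinc against iron. The largest of the 3 set differences was that of F1 at 1057 of the 1451, of F2 at 172 and of F3 at 222. F1 held 2 ZnSO4 libraries to 1 ZnO, and whether this bears on these counts was not tested. Without the F1 ZnO library, which leaves only ZnSO4 as zinc in F1, the count of 1451 rose to 3418. It also rose without both F1 ZnSO4 libraries. At the other end, 1707 features were called for zinc against iron, were not called by set, and had the 2 metals separated in every set.

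CHRD, named for chordin, the secreted BMP antagonist made on the oral side, varied between sets and between libraries. It stood at 79.8 CPM in F1 ZnO, 321 in F2 ZnO and 116 in F3 ZnO, and at 4.30 and 5.46 in F1 ZnSO4, 79.0 in F2 ZnSO4 and 64.0 in F3 ZnSO4. In iron it was steady, at 228, 286 and 307 (lowest, median, highest). F2 ZnO thus lay above all of the iron libraries, F1 ZnSO4 was nearly devoid of CHRD, and the other 4 zinc libraries lay between. The difference over all was -2.27 ± 0.45 (adjusted p = 0.00256), with -3.83 in F1, -0.54 in F2 and -1.56 in F3 (adjusted p = 0.000501 by set). HMX, a homeobox gene, stood at 34.7 to 38.6 CPM in the 3 zinc libraries of F1, at 79.0 and 79.7 in those of F2, and at 140 in F3 ZnO and 52.9 in F3 ZnSO4. Its iron libraries stood at 96.5 to 124, so that F3 ZnO lay above them. The difference was -0.88 ± 0.19 (adjusted p = 0.00551), -1.59 in F1, -0.28 in F2 and -0.37 in F3 (adjusted p = 0.0034 by set), and without F1 it was no longer called. FREM2 stood at 1301 to 1514 CPM in the zinc libraries of F1 and at 2986 to 3370 in its iron libraries. In F2 and F3 the zinc libraries stood at 1905 to 2919 and the iron libraries at 2381 to 3772. Within F2, ZnO lay above FeCl3 and below Fe2O3, so the metals overlapped there. FREM2 was lower by 0.71 on the log2 scale (-0.71 ± 0.10, adjusted p = 0.000149), most in F1 (-1.13) and least in F2 (-0.24).

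The apical plate showed another order of the sets. ANKAT-1 is a gene of the apical tuft cells, and NK2.1 is a homeobox transcription factor of the same plate. ANKAT-1.1.2 stood at 12.5, 11.9 and 9.43 CPM in ZnO of F1, F2 and F3, and at 72.2 and 74.3 in F1 ZnSO4, 9.28 in F2 ZnSO4 and 2.56 in F3 ZnSO4. In iron it stood at 56.1, 62.4 and 69.3 (lowest, median, highest). The F1 ZnSO4 libraries lay above all iron libraries and the other 5 zinc libraries below them all. Over all it was lower by 1.72 (-1.72 ± 0.39, adjusted p = 0.0084), with -0.44 in F1, -2.39 in F2 and -3.44 in F3 (adjusted p = 0.0225 by set). NK2.1 was likewise low outside F1 ZnSO4, with 17.0 and 19.3 CPM in F1 ZnSO4, 3.12 to 8.35 in the other 5 zinc libraries and 13.5 to 17.2 in iron. It was lower by 0.85 (-0.85 ± 0.22, adjusted p = 0.0187), and without F3 ZnO its adjusted p was 0.0887. ANKAT-1.2.2 was lower by 1.11 (-1.11 ± 0.26, adjusted p = 0.0094), at under 6 CPM, and without F1 ZnO its adjusted p was 0.256. The other members of the apical and neural list, ISLET, SNAP-25 and the 2 VAMP features, had differences of -0.13 to 0.07 and were not called.

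Some heat shock genes, but not all of their list, were high in the F1 ZnSO4 libraries. Of 10 features in the list, 5 were called higher and none lower, and the median was 0.26. HSP74.2.2, named for a protein of the HSP70 family of chaperones, stood at 30.1 and 33.8 CPM in F1 ZnSO4, 8.46 in F1 ZnO and 1.53 to 2.97 in the other 4 zinc libraries. In iron it stood at 0.899, 4.07 and 6.39 (lowest, median, highest), so only F1 held zinc libraries above the iron range of all sets. Within F2 both zinc libraries lay above both iron libraries, and within F3 the metals overlapped. The difference over all was 1.25 ± 0.26 (adjusted p = 0.00369), with 1.89 in F1, 0.53 in F2 and 0.16 in F3. HSP74.1.2 stood at 30.2 and 32.8 CPM in F1 ZnSO4 and at 0.295 to 2.21 in each of the other 13 libraries. HSP72.2.3 stood at 16.1 and 17.2 in F1 ZnSO4, 9.64 in F1 ZnO and 4.68 to 8.05 in all of the others. CALRET, also called (0.22 ± 0.06, adjusted p = 0.0322), differed most in F2 (0.48) and less in F1 (0.17) and F3 (0.07). HSP90B1 had 0.002 and was not called. Without the F1 ZnSO4 libraries, an alternative chosen after seeing the data, the adjusted p was 0.11 for HSP74.2.2, 0.521 for HSP74.1.2 and 0.343 for HSP72.2.3, and 1 of the 10 features was called.

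The differences of gut genes varied between sets. None of the 6 features in the endoderm list was called over all, and their median difference was -1.03 in F1, 0.35 in F2 and 0.09 in F3. ENDO16 is a secreted protein of the gut wall that marks endoderm. ENDO16.3.3 stood at 65.2 and 71.4 CPM in F1 ZnSO4 and 138 in F1 ZnO, against 182 to 195 in iron of F1. In F2 it stood at 333 in ZnO and 292 in ZnSO4 against 259 and 238 in iron, and in F3 at 277 and 255 against 261 and 251. The difference by set was called for ENDO16.3.3 (adjusted p = 8.69e-05), for the other 2 ENDO16 features and for GATAE, a GATA transcription factor of the gut. GATAE stood at 22.2 and 24.5 CPM in F1 ZnSO4 and at 46.5 to 106 in each of the other 13 libraries. The F1 ZnSO4 libraries thus held the lowest zinc values of CHRD, ENDO16.3.3 and GATAE and the highest of HSP74.2.2 and ANKAT-1.1.2. Without both, 3620 features were called for zinc against iron and 1577 for metal by set.

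**Figure D3:**
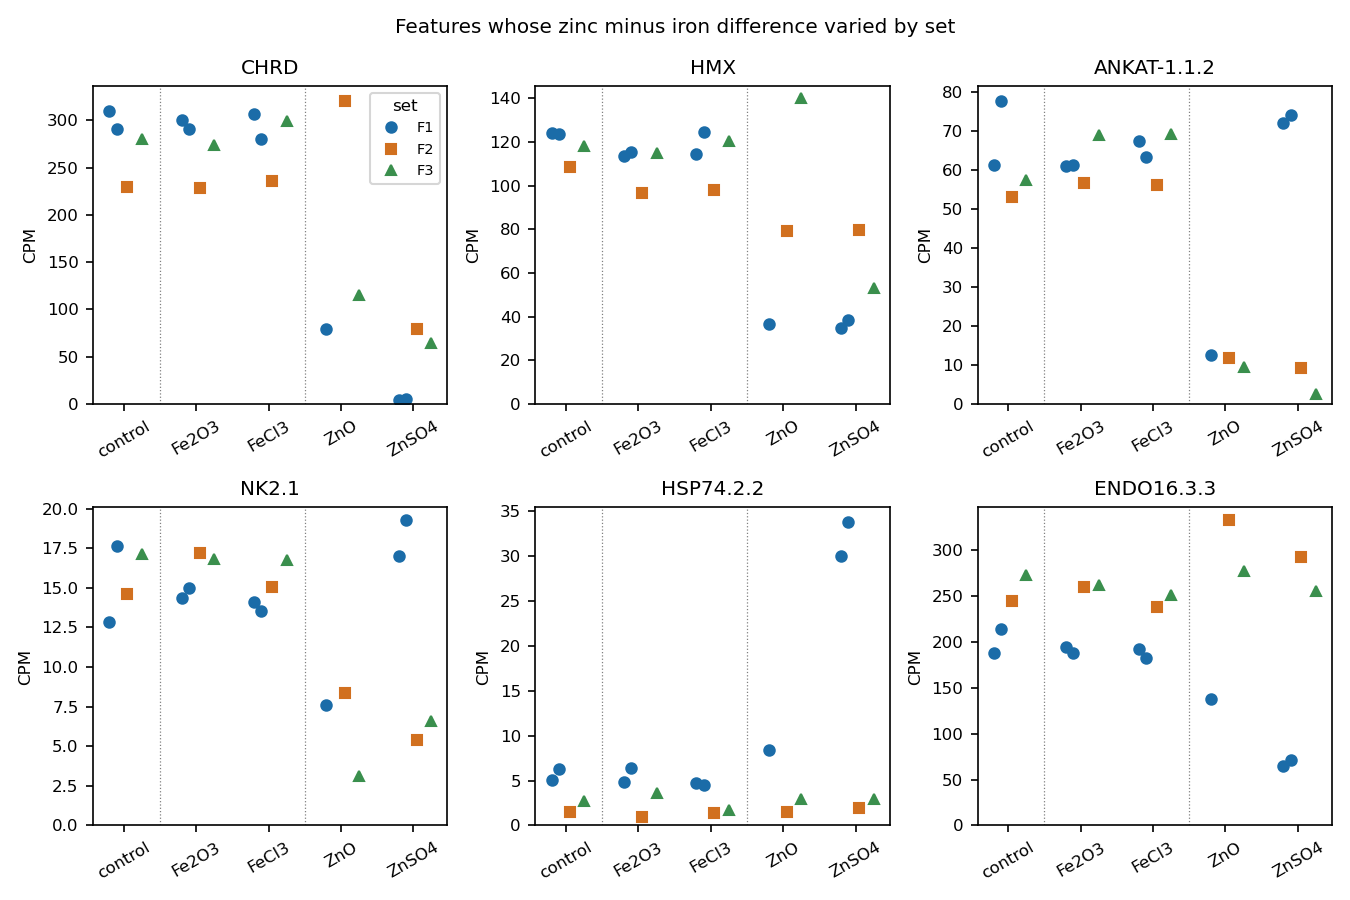
CPM in each of the 19 libraries (points, 1 per library, shape and colour by set) for 6 features whose zinc minus iron difference varied by set, by treatment. The F1 ZnSO4 libraries stand near 0 for CHRD (4.30 and 5.46), above the iron libraries for ANKAT-1.1.2 (72.2 and 74.3), near or above the top of the iron range for NK2.1 (17.0 and 19.3), and above all others for HSP74.2.2 (30.1 and 33.8).

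Of the signalling genes, WNT2, a Wnt ligand, was higher in every set. It stood at 60.5, 91.1 and 151 CPM (lowest, median, highest) in zinc and at 45.7, 53.2 and 83.8 in iron, with 0.61 in F1, 0.55 in F2 and 0.76 in F3 (0.63 ± 0.11 over all, adjusted p = 0.00111). SFRP.1.2, named for a secreted Wnt antagonist, was higher by 0.31 ± 0.08 (adjusted p = 0.0303), and its adjusted p was 0.0971 without F3 FeCl3. CTNB, beta-catenin, had -0.05 and DVL, dishevelled, had -0.04, and neither was called. FGFRL1.1.2, named for a receptor-like protein of the FGF receptor family, was higher by 0.46 ± 0.10 (adjusted p = 0.00616), which came from F1 (0.86) and not from F2 (0.13) or F3 (0.09). SFK5, a Src family kinase, was higher by 0.41 ± 0.11 (adjusted p = 0.0313), and its adjusted p was 0.147 without F2 ZnO.

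Of 14 features in the redox list, 3 were higher and none lower, near the share of all features with a gene name (19.4%), and the median was 0.01. DUOX1.1.2, a dual oxidase that makes hydrogen peroxide, stood at 655, 827 and 954 CPM in zinc and at 422, 690 and 752 in iron, above the iron libraries of its set in every set (0.40 ± 0.06, adjusted p = 9.86e-05). DUOX1.2.2 was higher by 0.42 ± 0.09 (adjusted p = 0.00374), and NADK.1.3, an NAD kinase, by 0.35 ± 0.07 (adjusted p = 0.00271). The antioxidant enzymes SODC, a superoxide dismutase (-0.06), and GPX1, a glutathione peroxidase (0.17), were not called. Of 13 features in the list of xenobiotic and sterol metabolism, 1 was lower and 1 higher, again near that share. ABCB4.4.7, an ABC transporter, was lower (-0.51 ± 0.10, adjusted p = 0.00326). ABCB4.7.7 was higher (0.79 ± 0.21, adjusted p = 0.0293) at under 3 CPM, and its adjusted p was 0.0912 without F2 FeCl3. Of 4 pigment and immune features, 1 was called, which is no more than that share would give in so short a list. It was C3, the complement protein, higher by 0.38 ± 0.09 (adjusted p = 0.00828).

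Of 50 features of cilia and tubulins, 7 were lower and 1 higher, and the median was -0.14. Both directions together were a smaller share than the 19.4% of all features with a gene name, which includes the 23 MT features. Of all 572 features with a gene name, 38 were lower and 73 higher. In the cilia list 35 of 50 differences were below 0, against 251 of the 572. The 7 lower members of the list were all tubulin features, and no dynein feature was called over all. The dynein features DYI2.1.2 and DYNLRB2 varied by set (adjusted p = 0.00225 and 0.00197). They had 0.45 and 0.63 in F1, -0.19 and -0.06 in F2, and -0.15 and 0.01 in F3. TBB1.1.2, a beta-tubulin, was lower by 0.46 (-0.46 ± 0.07, adjusted p = 0.000286) and lay below iron in every set. TBA1.3.12, an alpha-tubulin, was lower by 0.53 (-0.53 ± 0.14, adjusted p = 0.0251), and its adjusted p was 0.083 without F2 ZnO. The member that was higher was EMAP, a microtubule-associated protein (0.24 ± 0.06, adjusted p = 0.00976), whose adjusted p was 0.0561 without F1 ZnO. Tubulin copies are near-identical, so the single values are uncertain. None of 8 features of cell cycle and DNA damage, 23 histone features or 13 ribosomal protein features was called, with medians of -0.01, 0.04 and 0.14. Of 19 features of oxidative phosphorylation, 1 was called. It was NU6M, a mitochondrially encoded subunit of complex I (0.26 ± 0.07, adjusted p = 0.0205), which was near 0 in all F2 libraries and had an adjusted p of 0.163 without F1 ZnO.

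Outside the lists, ARC3, EH2 and ANO7 were among the 15 largest falls with a gene name. ARC3 stood at 5.23, 9.86 and 22.1 CPM (lowest, median, highest) in zinc and at 12.4, 32.0 and 39.5 in iron, below iron in every set (-1.27 ± 0.16, adjusted p = 2.4e-05). EH2 was lower by 0.87 (-0.87 ± 0.11, adjusted p = 4.57e-05), by 1.14 in F1 (-1.14) and least in F3 (-0.35). ANO7, named for a protein of the anoctamin family, was lower by 0.58 (-0.58 ± 0.11, adjusted p = 0.00173).

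**Figure D4:**
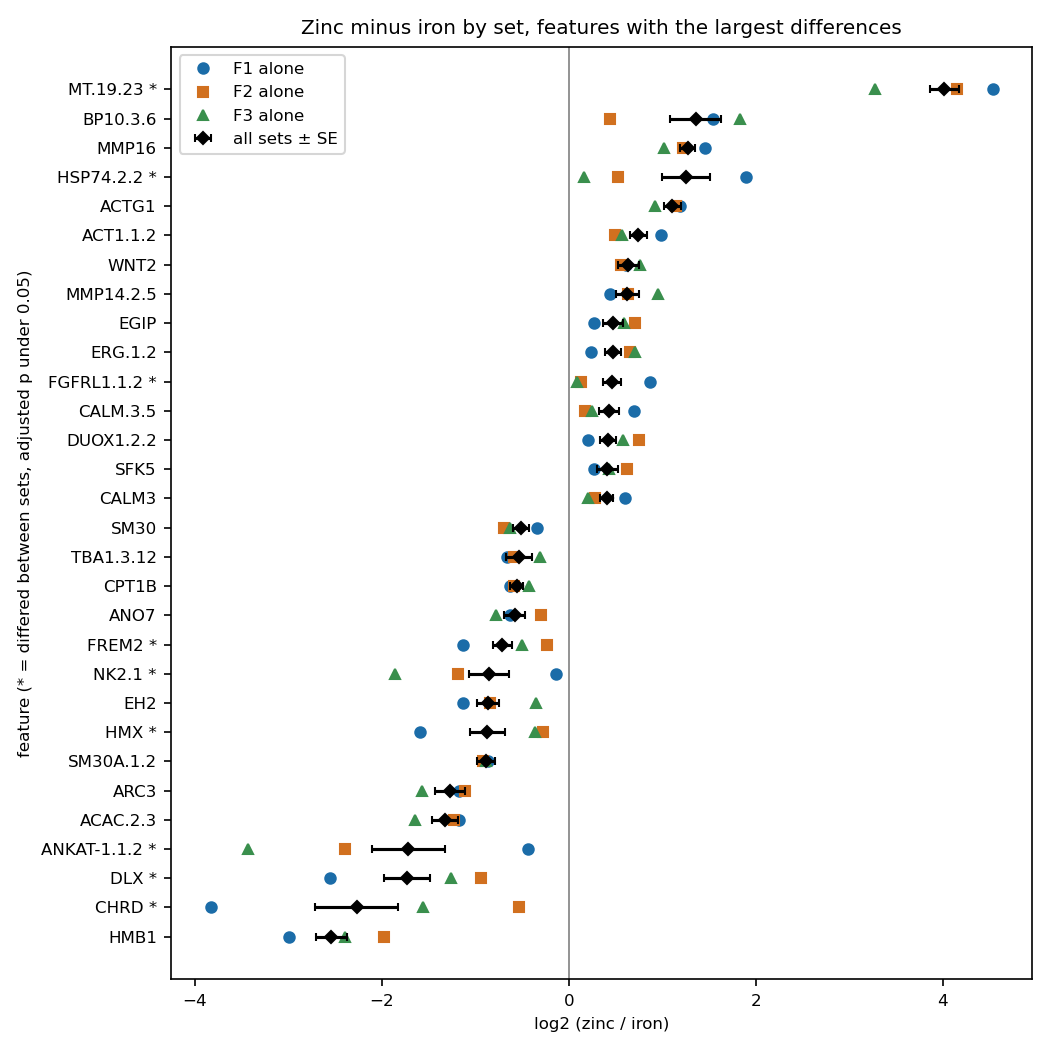
Log2 difference of zinc from iron (horizontal axis) for the 15 features higher and 15 lower with the largest differences by the rule for named genes, in each set alone (coloured points) and over all sets (black diamonds, bars ± SE). The points of SM30A.1.2 lie together at -0.87 to -0.91, whereas those of CHRD run from -3.83 to -0.54 and those of ANKAT-1.1.2 from -3.44 to -0.44.

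Features without a gene name gave the largest differences of the whole comparison among those over the floor of expression. In zinc contig_20334 stood at 28.5, 43.3 and 54.7 CPM (lowest, median, highest), and in iron at 0.338, 2.02 and 3.66 (4.80 ± 0.13, adjusted p = 7.52e-15). The next was contig_10271 (4.27 ± 0.17, adjusted p = 2.53e-12). LOC577625 stood at 0.196, 0.361 and 1.15 CPM in zinc and at 3.79, 10.3 and 18.8 in iron (-4.66 ± 0.17, adjusted p = 5.19e-13). For contig_07629 the difference was -4.04 ± 0.42 (adjusted p = 2.83e-06), and it varied from -7.28 in F1 to -2.51 in F2 (adjusted p = 7.26e-08 by set). The files do not pair these identifiers with gene names, and no sequence was used.

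The comparison was also made within particles and within salts, in fits that share no library. ZnO against Fe2O3 called 1287 features (2.05%), 601 higher (0.959%) and 686 lower (1.09%), from 7 libraries. ZnSO4 against FeCl3 called 2296 features (3.66%), 1048 higher (1.67%) and 1248 lower (1.99%), from 8 libraries. Both called 862 features, which are 67% of the particle calls and 37.5% of the salt calls, 418 higher in both, 444 lower in both and 0 in opposite directions. Of the particle calls, 96.3% had the same sign in the salts, and of the salt calls, 94.7% had the same sign in the particles, against 59.9% of all features. ACAC.2.3 differed by -1.41 in particles (adjusted p = 7.03e-06) and -1.38 in salts (adjusted p = 0.000234). MMP16 differed by 1.26 and 1.28, and ACTG1 by 1.14 and 1.08, all called in both. CHRD differed by -0.96 in particles, where it was not called (adjusted p = 0.16), and by -3.75 in salts, where it was called.

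The difference itself between particles and salts was tested as metal by form. It called 7 features (0.0112%), all with a larger value in particles. An unadjusted p under 0.05 was found at 2846 of 62675 features, a smaller share than the 0.05 that would be met where nothing differed. MT.17.23 and MT.2.23 were among the 7, as was contig_20334, and the other 4 were numbered contigs. MT.17.23 stood at 29.0 to 84.9 CPM over the zinc libraries. In Fe2O3 it stood at 2.59 and 2.73 in F1, 1.41 in F2 and 2.71 in F3, and in FeCl3 at 11.7 and 11.3 in F1, 5.24 in F2 and 7.91 in F3. Every FeCl3 library thus lay above every Fe2O3 library. The zinc difference was 4.23 in particles and 2.73 in salts, a gap of 1.51 (adjusted p = 0.00287). MT.2.23 had a gap of 1.70 (adjusted p = 0.00271) with the same order of treatments. The gaps of CHRD, HSP74.1.2 and ANKAT-1.1.2, although wide, were not called. For each of them the F1 ZnSO4 libraries stood apart from those of F2 and F3. For ANKAT-1.1.2 the F1 ZnSO4 libraries lay above iron, and its lower salt value came from F2 and F3. The count depended on 1 library more than the others did, with 55 features called without F1 ZnO, 21 without F2 ZnSO4 and 16 without F3 ZnSO4.

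**Figure D5:**
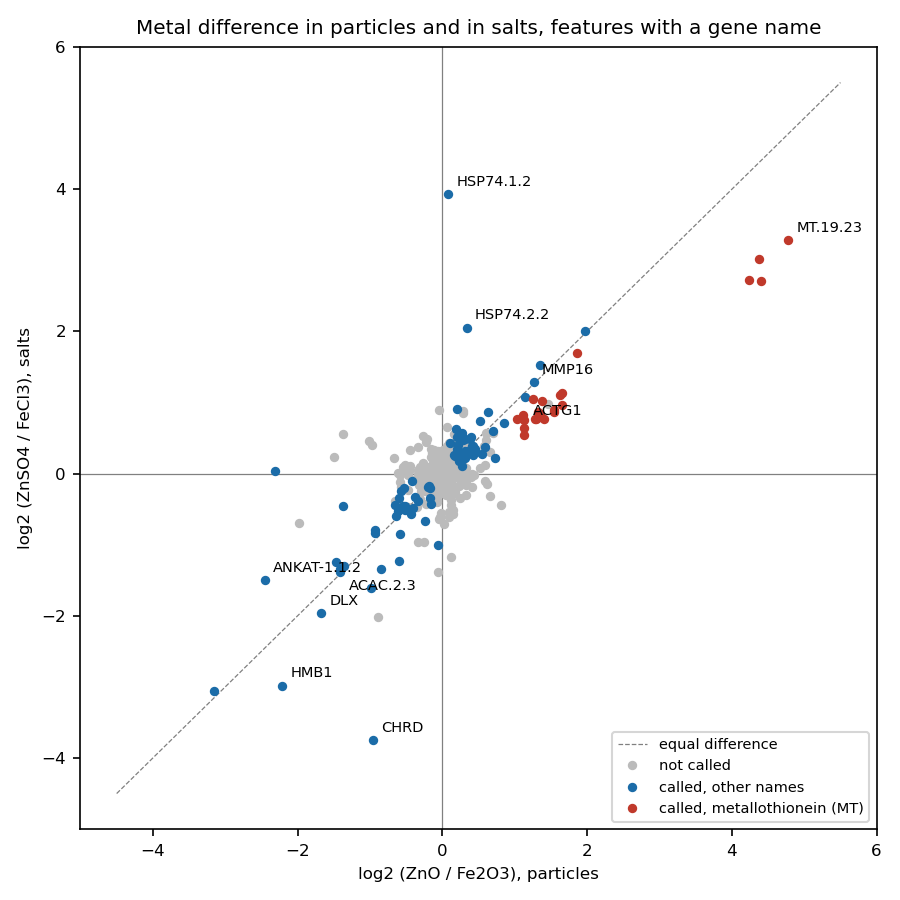
Log2 difference of ZnO from Fe2O3 (horizontal axis) and of ZnSO4 from FeCl3 (vertical axis) for features with a gene name, coloured by whether zinc against iron was called, with the line of equal difference. ACAC.2.3 (-1.41 and -1.38) and MMP16 (1.26 and 1.28) lie near the line, MT.19.23 lies to its right (4.77 and 3.28), and HSP74.1.2 lies above it (0.08 and 3.93).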

How the data were processed

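The authors deposited a table of whole-number counts per feature without normalization. Per the submitters' processing notes, which state no roles, the tools were SAMtools 1.3.1, Trim Galore 0.4.0 and BWA 0.7.12-r1039. Not given in the sources used here are the reference assembly, counting program, strand setting and treatment of multiply matching reads, and the last could divide reads between near-identical features. Each row named a feature, of which 576 carried a gene name (391 different names).

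Counts of the 15 libraries were fitted with edgeR 4.0.16 (R 4.3.3, limma 3.58.1) after filterByExpr and TMM scaling, with terms for treatment and set (9 residual and 10 prior degrees of freedom), and the contrast was the mean of both zinc treatments minus the mean of both iron treatments. Features were called at an adjusted p under 0.05. Particles and salts were fitted separately with set as a term (3 and 4 residual degrees of freedom). Metal by form was a contrast of the main fit, and metal by set added set-by-metal terms (7 residual degrees of freedom). CPM of controls were put on the same TMM scale. Log2 differences are given with standard errors. The F1 pairs of 1 treatment differed beyond sampling noise (chi-square over its degrees of freedom 7.96 for Fe2O3, 4.18 for FeCl3, 7.16 for ZnSO4) and were kept as separate samples. The script was tested on simulated data.

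Genes named were up to 15 higher and 15 lower with a gene name and the largest log2 difference among those called, with a mean log2 CPM of at least 1 and 1 sign in all sets, 1 per name. Added were all members of the zinc and iron lists, up to 4 of each other list by smallest p, and 2 identifiers higher and 2 lower. Further list members named (such as ARS.4.5, CTNB, SODC, GPX1, ISLET, ECHS1 and BMP1) were chosen after their values were seen. Members and lists were chosen with earlier results of these data known, and list names were edited, with a histone list added, once feature names had been read. The alternatives were another scaling, DESeq2 1.42.0, other filters, all 19 libraries, a single metal term, no set term, summed F1 libraries, a replicate block, and leaving out libraries or sets.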

Additional observations from a re-analysis of the deposited data

Results flagged for a closer look

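Samples were screened in 226 groups of set-adjusted log2 CPM (zinc or iron libraries, by feature), and in 14 of them 1 library stood apart, where chance gives about 1 in 20. The value is the gap to the nearest other library divided by the range of the group. In zinc, F2 ZnSO4 was the highest for the metallothionein sum (0.758) and for MT.14.23 (0.575), MT.16.23 (0.604), MT.4.23 (0.656), MT.13.23 (0.671), MT.12.23 (0.616) and MT.21.23 (0.624), which may share reads. F2 ZnSO4 was the lowest for SFRP.2.2 (0.571), and the first F1 ZnSO4 library was the lowest for SAA.2.2 (0.587). In iron, F3 FeCl3 was the lowest for WNT2 (0.579) and EH2 (0.614), and the first F1 Fe2O3 library for CALM.3.5 (0.595). F2 Fe2O3 was the highest for ISCU (0.598) and the lowest for NU6M (0.782), which is near 0 throughout F2.

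The difference between zinc and iron varied by set, by a test of the set-by-metal terms, at the features below (adjusted p). They are only those taken by the rule for named genes, out of 1451 features called, and further list members such as GATAE, DVR1 and BMP1 also varied by set. From the ectoderm and apical lists the rule took CHRD (0.000501), DLX (0.044), HMX (0.0034), ANKAT-1.1.2 (0.0225) and NK2.1 (0.00601). From the gut list it took ENDO16.1.3 (3.68e-05), ENDO16.2.3 (1.44e-05) and ENDO16.3.3 (8.69e-05). Among heat shock genes it took HSP74.1.2 (0.00368), HSP74.2.2 (0.0439) and HSP72.2.3 (0.00514). Of the metallothionein features it took MT.19.23 (0.00441), MT.23.23 (0.039), MT.5.23 (0.0197), MT.10.23 (0.0162) and MT.12.23 (0.01). Others that it took were FGFRL1.1.2 (0.000453), FREM2 (0.000101), ABCB4.4.7 (0.0492), CYP51 (0.00258) and contig_07629 (7.26e-08). The difference varied between particles and salts at MT.17.23 (0.00287), MT.2.23 (0.00271) and contig_20334 (0.0125). What the sets are is not stated in the labels, so no source of these differences was tested.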

How the results depend on the processing

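Of the 80 named features called, 67 were kept when any 1 library was left out and 58 when any 1 set was left out. Calls lost without F1 were those of ABCB4.4.7, ABCB4.7.7, CALM.3.5, CALM3, EMAP, FGFRL1.1.2, HMX, 3 heat shock features, NU6M, SFK5, TBA.4.4 and TBA1.3.12. Lost without F2 or F3 were ABCB4.7.7, C3, SFK5 and SFRP.1.2 (both), CALRET (F2), and DUOX1.2.2, EGIP, EMAP, MMP14.2.5, NADK.1.3, NK2.1, NU6M, TBA.4.4 and TBA1.3.12 (F3). The metallothionein sum kept its call under every alternative run, but with no set term 61 of the 80 named features lost theirs, 14 of the 23 MT features among them, and with F1 libraries summed 11 did. The count for zinc against iron (4135) was 224 with no set term, 2571 with F1 libraries summed, 2666 with the replicate block and 2482 without F1, and 3019 to 4579 without 1 library. ZnO against Fe2O3 (1287) gave 1 with no set term, 757 with F1 summed and 645 to 1446 without 1 library, the lowest 2 being 831 and 645 without either F1 Fe2O3 library. ZnSO4 against FeCl3 (2296) gave 12 with no set term, 615 with F1 summed, and 1297 to 2799 without 1 library. Metal by form (7) gave 28 with DESeq2, 0 with no set term, 3 with F1 summed, 39 with the replicate block, 66 without F1, 14 without both F1 ZnSO4 libraries, and 5 to 55 without 1 library. The test of metal by set (1451) gave 599 with F1 summed and 968 to 3418 without 1 library. The cause was not tested. DESeq2 called 4389 features for zinc against iron, 3993 of them among the 4135. The F1 replicate numbers did not pair the samples (r of deviations 0.10, -0.07 and -0.08 between treatments), so the replicate block is only a hint, and with it 12 of the 80 named features lost their call. Signs changed at features that were not called. Without F1 these were CHK1 (0.065), CYP51 (-0.13), ENDO16.1.3 (0.22), ENDO16.2.3 (0.23), ENDO16.3.3 (0.19) and EVE (0.0023). Without both F1 ZnSO4 libraries they were CHK1 (0.0092) and ENDO16.1.3 (0.032), ENDO16.2.3 (0.030) and ENDO16.3.3 (0.022), and without F3 ZnO it was ISCU (0.0029), whose values without 1 library ran from -0.094 to that.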

Other observations

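Further features with a gene name were lower in zinc by small amounts in every set (chosen after their values were seen). INO1A, named for inositol-3-phosphate synthase, was lower by 0.34 (-0.34 ± 0.06, adjusted p = 0.00136 by edgeR's quasi-likelihood test). ERD22, named for a receptor that returns proteins to the endoplasmic reticulum, was lower by 0.26 (-0.26 ± 0.04, adjusted p = 0.000466). POFUT1.2.2, named for the enzyme that adds fucose to Notch, was lower by 0.48 (-0.48 ± 0.09, adjusted p = 0.00119), although its libraries overlapped. PAK1, a kinase of the actin cytoskeleton, was higher by 0.26 ± 0.05 (adjusted p = 0.00247), beside the actins.

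Some features were present in only part of the sets. Under 1 CPM in every library of 1 set and over 10 CPM in each library of the others were 22 features for F1, 13 for F2 and 7 for F3, over the 15 libraries. NU6M is 1 of those for F2, with at most 0.111 CPM there and 177 to 288 CPM elsewhere.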
